A study of Mus musculus with 9 samples.

Results

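Fibroblast growth factor 1 (Fgf1), the 4 FGF receptors Fgfr1 to Fgfr4 and 5 inhibitors of the RAS-ERK cascade (Spry1, Spry2, Spry4, Spred1 and Dusp6) were examined in mouse duodenal organoids transduced with human HIF1 or HIF2. The 10 genes were chosen by name, with earlier results of these data known, and all 10 were found among the 46517 genes of the deposited tables. HIF1 and HIF2 are transcription factors that accumulate when oxygen is low. Secreted FGFs bind receptor tyrosine kinases at the cell surface with the help of heparan sulfate. The activated receptors signal through RAS, RAF and MEK to the kinase ERK. ERK activity in turn induces proteins that dampen the pathway, so the transcripts of Sprouty, Spred and Dusp6 genes are widely read as a record of pathway activity. In the intestine, FGF signalling takes part in crypt regeneration and epithelial growth.

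The organoids were grown from duodenal crypts of wild type C57BL/6J mice in conditioned medium with Wnt3a, R-spondin 3 and noggin, at 5% oxygen. They were dissociated to single cells, and each culture received 50 viral particles per cell about 72 hours before RNA was purified. Every group received an adenovirus. The Ad-GFP vector carries a CMV promoter, which is active in most cell types, and the promoter of the HIF vectors is not given in the sources used here. Ad-GFP encoded green fluorescent protein, and Ad-hHIF1 and Ad-hHIF2 encoded human HIF1 or HIF2 in which alanines replace the prolines that mark these proteins for degradation. Each group held 3 samples, labelled replicates 1, 3 and 4. For Ad-hHIF2 and Ad-GFP, the paper describes 3 biological replicates per group. The animals' ages and whether each culture came from its own animal are not given in the sources used here, so p-values measure the spread between these cultures. The design is one of transient transduction, in cultures kept at low oxygen in all 3 groups.

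The libraries held 21722618 to 51119041 expected counts each (median 34006559). The satellite-like transcripts Gm10800 and Gm26870 took 0.433% to 4.28% of the counts in 8 libraries and 16% in Ad-hHIF1 replicate 3, which stood apart in this respect. Levels are given as CPM, counts scaled to a common library size with edgeR's TMM factors over all 9 samples. Reads of the human transgenes reach the tables as far as they were assigned to mouse genes. Epas1, the mouse HIF2α gene, averaged 1.77 ± 0.382 CPM with SD over n = 3 in Ad-GFP, 672.1 ± 78.1 in Ad-hHIF2 and 2.1 ± 0.835 in Ad-hHIF1 cultures. Hif1a averaged 219.7 ± 28 CPM with SD over n = 3 in Ad-GFP, 226.9 ± 16.7 in Ad-hHIF2 and 309.0 ± 9.96 in Ad-hHIF1 cultures. Epas1 was 388.4-fold higher in Ad-hHIF2 than in Ad-GFP cultures (adjusted p = 8.06e-08, edgeR). The 1.41-fold difference of Hif1a between Ad-hHIF1 and Ad-GFP cultures did not pass (log2 0.49, adjusted p = 0.486, edgeR), although every Ad-hHIF1 sample lay above every Ad-GFP sample.

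Markers of the labelled tissue were uneven. The epithelial genes Krt8 and Cdh1 were at 1022 to 1358 CPM and 204.1 to 352.0 CPM. Epcam was at only 1.42 to 3.8 CPM, and the villus gene Vil1 at 3.27 to 4.94 CPM. The stem cell gene Lgr5 did not exceed 1.19 CPM. Cdx1 had no count in any library, and Olfm4, another stem cell gene, had counts in Ad-hHIF1 replicate 4 alone. Over 13 epithelial markers the summed level was 3273 to 3591 CPM in Ad-GFP, 3461 to 3788 in Ad-hHIF2 and 3380 to 3785 in Ad-hHIF1 cultures. Most of this sum came from Krt8, Krt18 and Krt19, which averaged 1067.2, 1160.5 and 914.9 CPM in Ad-GFP. Of 11 epithelial markers tested, 1 was higher and 2 were lower in Ad-hHIF2 than in Ad-GFP cultures (edgeR), beside 15.9% and 13.6% of all genes tested. In RNA from whole cultures, a change in the number of cells of a type and a change in RNA per cell cannot be told apart.

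In edgeR, Fgf1 had the largest fold change with HIF2 among the 8 tested members. In limma on log2(TPM + 1), where low values move less, it changed by 0.61, below Dusp6 (1.06) and Spry2 (0.70). The protein binds all FGF receptor types and lacks a classical secretion signal. The gene (ENSMUSG00000036585) lies on the minus strand of chromosome 18 of GRCm38, from 38838673 to 38929472. The 3 Ad-GFP samples had 0.984, 1.8 and 1.2 CPM, the Ad-hHIF2 samples 12.6, 9.93 and 13.8 CPM, and the Ad-hHIF1 samples 1.77, 1.97 and 2.15 CPM, in the order of replicates 1, 3 and 4. All Ad-hHIF2 samples thus stood above all other samples, whereas Ad-GFP and Ad-hHIF1 overlapped. The counts behind these levels were 24 to 65 in Ad-GFP, 426 to 549 in Ad-hHIF2 and 45 to 84 in Ad-hHIF1 libraries. With HIF2, Fgf1 rose 9.01-fold over Ad-GFP, by 3.17 on the log2 scale with a standard error of 0.23 and a 95% interval of 2.65 to 3.70 (edgeR's quasi-likelihood test, adjusted p = 3.24e-05). In Ad-hHIF1 cultures the log2 difference was 0.56, with an interval from -0.22 to 1.34 (adjusted p = 0.661, edgeR). In the direct comparison of both HIF groups, Fgf1 was 6.13-fold higher with HIF2 (log2 2.62, interval 2.11 to 3.12, adjusted p = 2.37e-05, edgeR).

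Fgf1 held whole-number counts in all 9 libraries, so no read was split in fractions between it and another gene. In GENCODE M21 it overlaps the opposite-strand gene models Arhgap26 and AC110730.1, under identifiers that were not analysed here. Strandedness of the libraries is not given in the sources used here, so reads of Fgf1 and of these partners cannot be told apart.

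**Figure D1:**
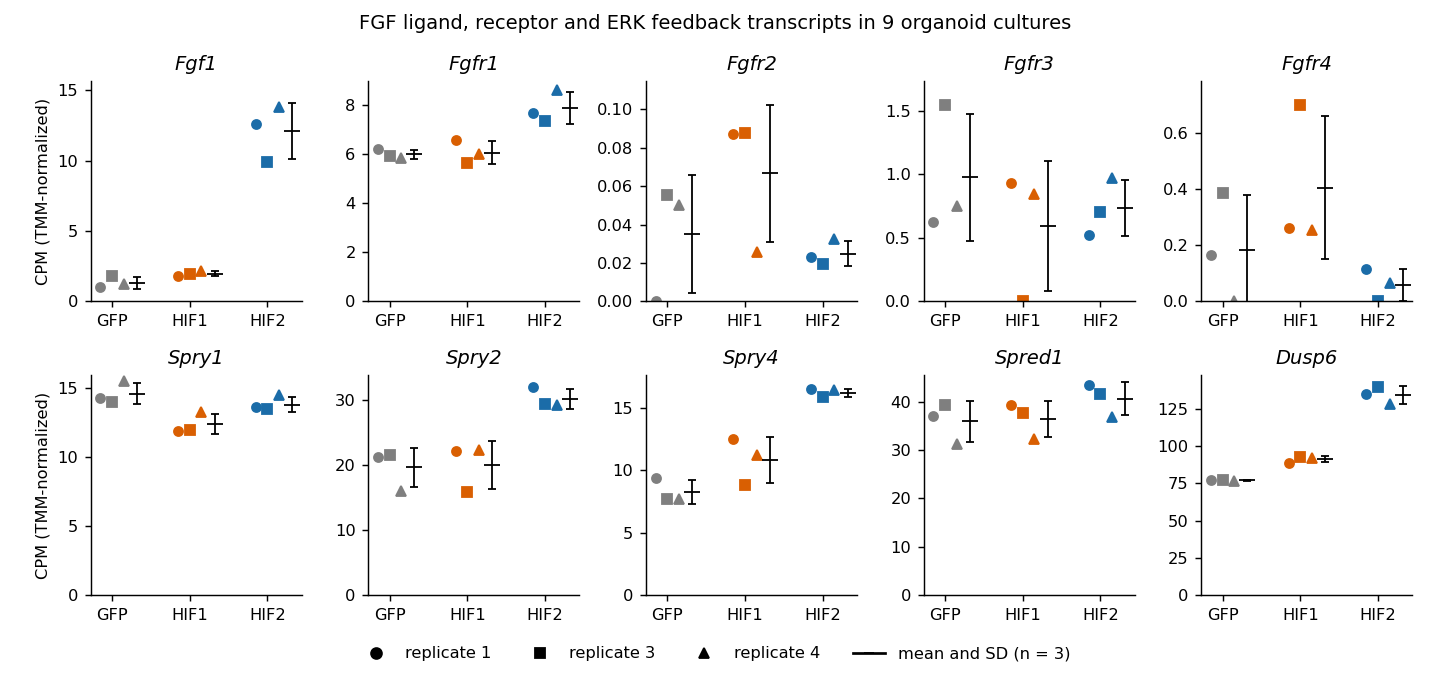
Level of each of the 10 genes in CPM (y axis, linear and starting at 0, with its own range in each panel) in Ad-GFP, Ad-hHIF1 and Ad-hHIF2 organoids; each symbol is a culture and the bar is the mean with SD (n = 3). Fgf1, Fgfr1, Spry2, Spry4 and Dusp6 show all Ad-hHIF2 samples above all others, and Fgfr2 stays under 0.1 CPM throughout.

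Of the 10 members, 8 passed edgeR's filter on low counts in each comparison, and Fgfr2 and Fgfr4 did not. Between Ad-hHIF2 and Ad-GFP organoids, 5 of the 8 were higher at an adjusted p below 0.05 (edgeR) and 0 lower. Among all 14987 genes tested, 15.9% were higher and 13.6% lower. A change of at least 2-fold was reached by Fgf1 alone, against 2.9% of all genes in the upward direction. The median log2 fold change was 0.51 over the 8 members and -0.01 over all genes. The same 5 members also had non-overlapping groups with every Ad-hHIF2 sample above, as did 23.4% of all genes tested.

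Among the receptors, Fgfr1 carried most of the signal. Fgfr1 (ENSMUSG00000031565, chromosome 8, 25513654 to 25575718, plus strand) encodes a receptor tyrosine kinase that is also abundant in mesenchyme. Of the summed counts per transcript length of the 4 receptors, Fgfr1 held 71.3% to 92% in the 9 libraries. Its levels were 6.2, 5.93 and 5.85 CPM in Ad-GFP, 7.66, 7.34 and 8.6 CPM in Ad-hHIF2 and 6.55, 5.61 and 6.01 CPM in Ad-hHIF1 samples. The Ad-hHIF2 samples stood above the other 6, but by a small margin. The log2 fold change against Ad-GFP was 0.39 (standard error 0.119, adjusted p = 0.0365, edgeR), and against Ad-hHIF1 it was 0.37 (adjusted p = 0.045, edgeR). The first call was lost in edgeR whichever of the 6 samples was left out, with adjusted p between 0.052 and 0.114. It was also lost in DESeq2 (adjusted p = 0.0604). The second was lost in 16 of 19 alternatives, where its adjusted p ran up to 0.396 (limma on log2(TPM + 0.1)). Between Ad-hHIF1 and Ad-GFP the difference was 0.01, with an interval from -0.31 to 0.34.

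The other receptors were barely detected. Fgfr2, whose epithelial splice form receives mesenchymal FGFs in many organs, had 0 to 3 expected counts in every library. Fgfr4 (chromosome 13, 55152640 to 55168759), the receptor for the ileal hormone Fgf15, had at most 16 counts and none in Ad-GFP replicate 4 and Ad-hHIF2 replicate 3. Fgfr3 (chromosome 5, 33721674 to 33737068), which is found in crypt epithelium, had 15 to 55.84 counts in Ad-GFP and 23 to 36 in Ad-hHIF2 libraries. In Ad-hHIF1 replicates 1, 3 and 4 it had 32, 0 and 33 counts, and a count of 0 allows up to 3. Fgfr3 levels were 0.628, 1.55 and 0.75 CPM in Ad-GFP, 0.526, 0.706 and 0.97 CPM in Ad-hHIF2 and 0.931, 0 and 0.844 CPM in Ad-hHIF1 samples. These groups overlapped in every pair, and the log2 difference between Ad-hHIF2 and Ad-GFP had an interval from -1.47 to 0.61 (adjusted p = 0.519, edgeR). At this depth, that interval still held a 2-fold lower level.

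Of the 5 feedback inhibitors, Dusp6, Spry4 and Spry2 rose with HIF2, whereas Spred1 and Spry1 did not pass the test. The 5 had a median log2 fold change of 0.62 against Ad-GFP. Dusp6 (ENSMUSG00000019960, chromosome 10, 99263231 to 99267489, plus strand) encodes a cytoplasmic phosphatase that inactivates ERK. It was at 77.5, 77 and 76.9 CPM in Ad-GFP, 134.9, 139.8 and 128.0 CPM in Ad-hHIF2 and 88.8, 93 and 91.8 CPM in Ad-hHIF1 samples. The 3 groups did not overlap and were ordered Ad-GFP, Ad-hHIF1 and Ad-hHIF2. The log2 fold change was 0.80 for Ad-hHIF2 against Ad-GFP (standard error 0.0701, adjusted p = 8.66e-05, edgeR) and 0.56 for Ad-hHIF2 against Ad-hHIF1 (interval 0.42 to 0.70, adjusted p = 0.000153, edgeR). For Ad-hHIF1 against Ad-GFP it was 0.24, with an interval from 0.09 to 0.39 (unadjusted p = 0.00597, adjusted p = 0.49, edgeR). Every Ad-hHIF1 sample was above, as for 8.38% of all genes tested in that comparison. DESeq2 gave this last difference an adjusted p of 0.0494. The adjusted p of the other alternatives ran up to 0.803.

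Spry4 and Spry2 belong to the Sprouty family, which blocks signalling between the receptor and RAF. Spry4 (ENSMUSG00000024427) lies on the minus strand of chromosome 18 from 38586247 to 38601415. Its levels were 9.35, 7.68 and 7.7 CPM in Ad-GFP, 16.5, 15.9 and 16.4 CPM in Ad-hHIF2 and 12.5, 8.85 and 11.2 CPM in Ad-hHIF1 samples. Ad-hHIF2 stood above both other groups, which overlapped at the Ad-hHIF1 replicate 3 value. Against Ad-GFP the rise was 1.97-fold (log2 0.98, interval 0.74 to 1.22, adjusted p = 0.000288, edgeR). Against Ad-hHIF1 it was 1.49-fold (log2 0.58, interval 0.29 to 0.87, adjusted p = 0.00873, edgeR). The difference between Ad-hHIF1 and Ad-GFP was 0.40 in log2, with an interval from 0.03 to 0.77 (unadjusted p = 0.039, adjusted p = 0.575, edgeR).

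Spry2 (ENSMUSG00000022114, chromosome 14, 105891947 to 105896819, minus strand) was at 21.2, 21.5 and 16 CPM in Ad-GFP samples. It was at 31.9, 29.3 and 29.2 CPM in Ad-hHIF2 and at 22.1, 15.8 and 22.3 CPM in Ad-hHIF1 samples. Ad-GFP and Ad-hHIF1 covered nearly the same range, below every Ad-hHIF2 sample. Spry2 rose 1.54-fold against Ad-GFP (log2 0.62, interval 0.37 to 0.87, adjusted p = 0.00379, edgeR) and 1.5-fold against Ad-hHIF1 (log2 0.58, interval 0.26 to 0.90, adjusted p = 0.0142, edgeR). Without Ad-hHIF2 replicate 1, the second adjusted p was 0.057 (edgeR). In limma on log2(TPM + 1) and log2(TPM + 0.1), Spry2 against Ad-GFP had adjusted p of 0.0634 and 0.0528. On both TPM scales the calls of Spry2, Spry4 and Dusp6 against Ad-hHIF1 were lost, with adjusted p from 0.107 to 0.191 (limma). The log2 fold changes on log2(TPM + 1) and log2(TPM + 0.1) were 0.58 and 0.83 for Spry2, 0.28 and 0.72 for Spry4 and 0.72 and 0.81 for Dusp6, beside 0.58, 0.58 and 0.56 in edgeR. Ad-hHIF2 replicate 1 stood apart on the TPM scale, with Spry2 at 4.05 TPM against 2.03 and 2.08 in the other Ad-hHIF2 libraries, and its TMM factor was 1.31 against 0.907 to 1.03 elsewhere. Its part in the lost calls was not tested. Between Ad-hHIF1 and Ad-GFP the log2 difference was 0.03, with an interval from -0.35 to 0.41.

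Spred1 and Spry1 differed little among groups. Spred1 (chromosome 2, 117121374 to 117182279), which brings neurofibromin to RAS at the membrane, was at 37, 39.4 and 31.2 CPM in Ad-GFP, 43.4, 41.6 and 36.8 CPM in Ad-hHIF2 and 39.3, 37.6 and 32.2 CPM in Ad-hHIF1 samples. The groups overlapped, and the log2 difference between Ad-hHIF2 and Ad-GFP was 0.18, with an interval from -0.04 to 0.41 (adjusted p = 0.199, edgeR). Spry1 (chromosome 3, 37639947 to 37644598) was at 14.3, 14 and 15.5 CPM in Ad-GFP, 13.6, 13.5 and 14.5 CPM in Ad-hHIF2 and 11.9, 12 and 13.3 CPM in Ad-hHIF1 samples. Every Ad-hHIF1 sample of Spry1 lay below every sample of the other groups, and 9.06% of all genes tested lay wholly below Ad-GFP in the same way. Its log2 difference was -0.23 for Ad-hHIF1 against Ad-GFP (interval -0.46 to -0.00, adjusted p = 0.581, edgeR). It was -0.07 for Ad-hHIF2 against Ad-GFP (interval -0.27 to 0.13, adjusted p = 0.577, edgeR), a sign that turned under other scalings. The intervals of Spry2 and Spry4 against Ad-GFP lay above that of Spry1, but the difference between these genes was not tested. Spry1 had whole-number counts in only 1 of 9 libraries, so some of its reads were split in fractions with another transcript.

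**Figure D2:**
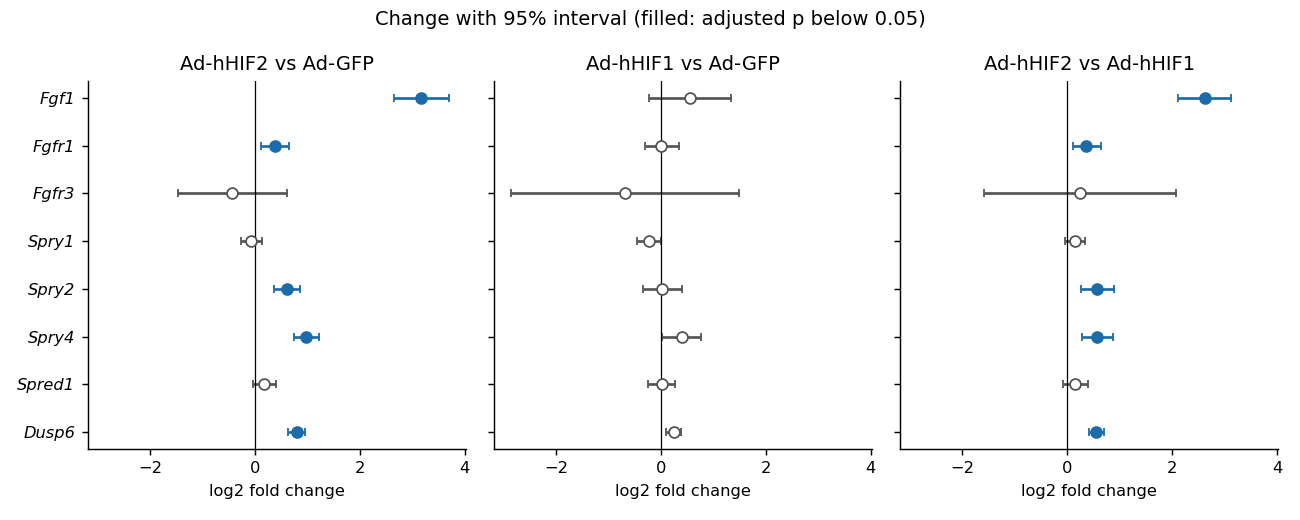
Log2 fold change (x axis) of the 8 tested genes in the 3 comparisons, with 95% intervals from edgeR's quasi-likelihood fit; filled points had an adjusted p below 0.05. The same 5 genes are filled in both comparisons with Ad-hHIF2, led by Fgf1 at 3.17 and 2.62, and none is filled for Ad-hHIF1 against Ad-GFP.

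In Ad-hHIF1 cultures, 0 of the 8 tested members passed against Ad-GFP in edgeR, and 0% of all 15233 genes tested passed. Before adjustment, 1308 genes had a p below 0.05 in edgeR, among them Dusp6, Spry4 and Spry1. DESeq2 called 68 genes higher and 76 lower, with Dusp6 as the only member. Between the HIF groups, 5 of 8 members were higher and 0 lower, against 13.7% and 12% of 15556 genes tested. Fgf1 alone was at least 2-fold higher there, as were 2.42% of all genes. Both comparisons with Ad-GFP share the same 3 control samples.

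Upstream sequences were read for members that differed in their response: Dusp6 and Spry2, which rose, and Spry1 and Spred1, which did not pass. RefSeq windows matched 7 of the 10 members by symbol, and those of the barely detected Fgfr2, Fgfr3 and Fgfr4 are not shown. Each run below is the 250 bases before the annotated start, 5′ to 3′ on the gene's strand, in GRCm38.p6, and capitals mark the hypoxia response element cores ACGTG and GCGTG on either strand. The windows are chr10:99262981-99263230 (plus strand) for Dusp6, chr14:105896820-105897069 (minus strand) for Spry2, chr3:37639697-37639946 (plus strand) for Spry1 and chr2:117120821-117121070 (plus strand) for Spred1, whose RefSeq start lies upstream of the GENCODE gene start.
Dusp6: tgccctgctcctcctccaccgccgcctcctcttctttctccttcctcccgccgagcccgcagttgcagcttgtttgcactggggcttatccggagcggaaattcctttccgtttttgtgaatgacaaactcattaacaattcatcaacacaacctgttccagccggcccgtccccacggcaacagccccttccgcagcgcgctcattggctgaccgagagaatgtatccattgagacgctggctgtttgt
Spry2: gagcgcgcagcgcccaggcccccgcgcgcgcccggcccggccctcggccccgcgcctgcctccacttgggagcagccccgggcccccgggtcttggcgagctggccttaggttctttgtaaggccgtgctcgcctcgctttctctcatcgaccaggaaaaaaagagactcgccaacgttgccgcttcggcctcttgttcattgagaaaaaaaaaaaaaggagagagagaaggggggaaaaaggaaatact
Spry1: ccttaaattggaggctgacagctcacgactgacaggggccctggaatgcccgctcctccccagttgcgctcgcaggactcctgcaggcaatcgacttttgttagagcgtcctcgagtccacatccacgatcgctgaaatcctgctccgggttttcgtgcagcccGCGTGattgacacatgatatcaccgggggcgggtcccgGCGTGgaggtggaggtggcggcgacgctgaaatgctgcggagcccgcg
Spred1: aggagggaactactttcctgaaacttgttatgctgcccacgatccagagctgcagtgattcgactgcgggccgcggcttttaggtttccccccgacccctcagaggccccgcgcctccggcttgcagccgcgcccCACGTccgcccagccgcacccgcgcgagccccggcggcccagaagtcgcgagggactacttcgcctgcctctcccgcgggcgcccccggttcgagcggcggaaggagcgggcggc

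Neither core was found in the windows of Dusp6 and Spry2. Spry1 held GCGTG 2 times, with the first base 86 and 48 bases before the start. Spred1 held ACGTG once, on the opposite strand and printed as CACGT, 115 bases before the start. Among 32851 windows of this length, 16.6% held ACGTG, 28.2% held GCGTG and 38.6% held either. The 4 windows had 56.4% to 70.8% G and C bases, against a median of 52.4% over all windows, and these shares were not matched for that. The 4 windows held no match to the ETS core CCGGAA, present in 12% of all windows, or to the AP-1 site TGANTCA, present in 6.75%, both searched on both strands. ACGTG is contained in the E-box CACGTG, which 6.02% of windows held and these 4 did not. A match is a string of letters and not a measured binding site. Fgf1, Fgfr1 and Spry4 had no window in the table.

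Within each library, the members were ordered by TPM, which accounts for transcript length. Dusp6 was first and Spry2 second in all 9 libraries. Fgf1 stood at 7 or 8 of the 10 in Ad-GFP and Ad-hHIF1 libraries. In Ad-hHIF2 libraries it stood at 5 or 6, above Fgfr1, which stood above it in all other libraries. Fgfr2 and Fgfr4 were among the last 4 throughout.

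Most of the other 21 FGF family genes were too low to test. Of the 8 that were tested between Ad-hHIF2 and Ad-GFP, 4 were higher and 1 lower (edgeR), beside 15.9% and 13.6% of all genes tested, with a median log2 fold change of 0.33. The number higher was 2 without Ad-GFP replicate 1 or Ad-hHIF2 replicate 4 and 3 without any other sample. Fgf5, a growth factor known from the hair cycle, rose by 3.45 on the log2 scale (adjusted p = 0.0023, edgeR), from 0.328, 0.305 and 0 CPM to 2.47, 2.47 and 2.88 CPM. Fgf18, a ligand known from lung and skeletal development, rose by 2.03 (adjusted p = 0.000142, edgeR), from 1.43 ± 0.242 to 5.89 ± 0.414 CPM (SD, n = 3). The intracellular family members Fgf11 and Fgf13 rose by 0.69 and 0.99. The call of Fgf13 was lost whichever sample was left out. That of Fgf11 was lost without Ad-GFP replicate 1 or Ad-hHIF2 replicate 4. It was also lost on log2(TPM + 1) and log2(TPM + 0.1), at 0.26 and 0.83 (adjusted p = 0.0785 and 0.0983, limma). Fgf21, a metabolic hormone, fell by 4.23 (adjusted p = 0.00115, edgeR), with 17 to 59 counts in Ad-GFP and 1 to 4 in Ad-hHIF2 libraries. Fgf1, Fgf5 and Fgf18 were all higher in Ad-hHIF2 than in Ad-hHIF1 cultures as well, with log2 fold changes of 2.62, 3.13 and 1.36 (adjusted p = 2.37e-05, 0.0061 and 0.00177, edgeR).

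The 22 FGF family genes include the intracellular Fgf11 and Fgf13. Per transcript length, Fgf1 made up 3.03% to 6.46% of their summed counts in Ad-GFP and Ad-hHIF1 libraries. Its rank among them was 6 to 9 there. In Ad-hHIF2 libraries it made up 25.3%, 18% and 21.2% and ranked second. Fgf18 ranked first there, with 41%, 45.5% and 39%, and also in Ad-hHIF1 replicates 1 and 4, with 27.5% and 30.1%. Fgf9, an epithelial ligand for mesenchymal receptors, led in 3 of the other libraries and held 47.9% in Ad-hHIF1 replicate 3. Its levels were 3.63, 6.35 and 8.15 CPM in Ad-GFP, 0.0686, 1.43 and 2.49 CPM in Ad-hHIF2 and 7.88, 21.4 and 2.63 CPM in Ad-hHIF1 samples. The log2 difference was -2.20 against Ad-GFP (adjusted p = 0.054, edgeR), which passed in 7 of 15 alternatives (log2 -1.61 and adjusted p = 0.0229 without Ad-hHIF2 replicate 1, and log2 -2.94 and 0.0438 without Ad-hHIF2 replicate 4, edgeR), and -3.02 against Ad-hHIF1 (adjusted p = 0.032, edgeR). With the replicate number as a block, the difference against Ad-GFP was -2.54 (adjusted p = 0.0092, edgeR). The call against Ad-hHIF1 was lost in 7 of 18 alternatives. Without Ad-hHIF1 replicate 3 the log2 difference against Ad-hHIF1 was -2.03 (adjusted p = 0.108, edgeR), and without Ad-hHIF2 replicate 1 it was -2.43 (adjusted p = 0.0639, edgeR). It was -3.75 without Ad-hHIF2 replicate 4, where the call held. The adjusted p was 0.053 without Ad-hHIF1 replicate 1, 0.0902 without Ad-hHIF2 replicate 3 and 0.0512 without Ad-GFP replicate 3 (edgeR). Fgf9 was highest in the library with 16% of satellite-like counts and lowest in Ad-hHIF2 replicate 1, which had 0.433%. The part of these transcripts in the Fgf9 difference was not tested.

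**Figure D3:**
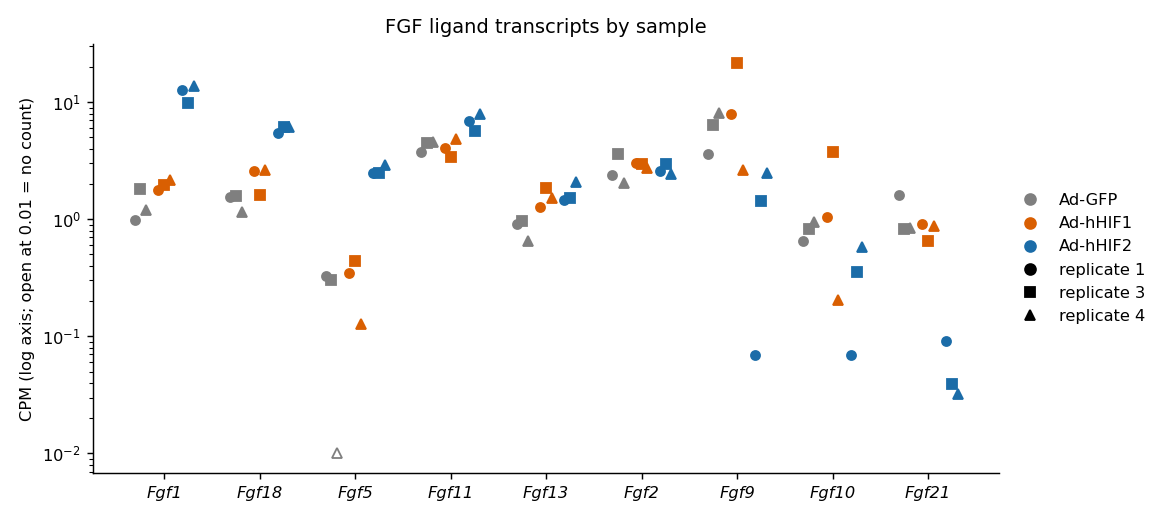
Levels of Fgf1 and the 8 other tested FGF family genes in CPM (log y axis), with 1 symbol per culture. The open symbol marks a library without a count. Fgf1, Fgf18 and Fgf5 lie highest in the 3 Ad-hHIF2 cultures, Fgf21 lies lowest there, and Fgf9 spreads from 0.0686 to 21.4 CPM.

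Of 23 tested co-receptor, binding protein and heparan sulfate genes, which help to present FGFs to their receptors, edgeR placed 9 higher and 2 lower with HIF2 than with GFP, and 12 did not pass. Over all genes tested, 15.9% were higher and 13.6% lower. In limma on log2(TPM + 1) and log2(TPM + 0.1), 4 and 5 of the list were higher and 0 and 1 lower, and the calls of Fgfbp1, Sulf2 and Ndst1 were lost on both scales and that of Sdc4 on the first. The cell-surface heparan sulfate carrier Sdc3 rose from 18, 19 and 24 CPM to 79.5, 74.2 and 95.6 CPM, a 4.11-fold change (adjusted p = 1.94e-05, edgeR). Flrt3, a membrane protein that binds FGF receptors, rose 2.43-fold (adjusted p = 1.22e-05, edgeR). The heparan sulfate sulfotransferases Hs6st2, Ndst2 and Ndst1 rose by 1.19, 0.87 and 0.46 on the log2 scale, and the carrier Sdc4 by 0.58. On the lower side, the FGF carrier Fgfbp1 fell by 1.48 in log2 (adjusted p = 0.00137, edgeR). Sulf2, which removes sulfate groups from heparan sulfate, was at 0.499 times the Ad-GFP level (adjusted p = 0.0181, edgeR), a call lost without Ad-GFP replicate 1 or Ad-hHIF2 replicate 3. Kl, the co-receptor for the endocrine Fgf23, was at 2.46, 2.88 and 4 CPM in Ad-GFP samples. In Ad-hHIF2 samples it was at 0.0457, 1.04 and 1.16 CPM (adjusted p = 0.058, edgeR). The log2 difference of -2.05 passed in 5 of 15 alternatives, and was -1.46 without Ad-hHIF2 replicate 1 (adjusted p = 0.0173, edgeR). It was -2.35 with the replicate number as a block (adjusted p = 0.0246, edgeR) and -1.89 by total counts (adjusted p = 1.77e-05, edgeR). Kl was highest in Ad-hHIF1 replicate 3, at 10.5 CPM, the library where Fgf9 was highest too, and the part of the satellite-like transcripts was not tested there either.

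Of 21 tested genes of the RAS-ERK cascade, 7 were higher and 1 lower between Ad-hHIF2 and Ad-GFP, beside 15.9% and 13.6% of all genes tested, and no gene reached a 2-fold change. The number higher was 4 without Ad-GFP replicate 1, Ad-hHIF2 replicate 3 or Ad-hHIF2 replicate 4, 3 without Ad-GFP replicate 3, and 1 in limma on either TPM scale. Grb2, the adaptor that brings SOS to activated receptors, rose by 0.65 on the log2 scale (adjusted p = 0.0179, edgeR), a call lost without Ad-GFP replicate 1 or 3. Hras, a RAS gene, fell by 0.51 (adjusted p = 0.0439, edgeR), a call that held only without Ad-GFP replicate 3 among the 6 fits that left out a sample, and its sign turned on both TPM scales. Shc1, the most abundant gene of this list in counts, was at 108.5 ± 6.31 CPM in Ad-GFP and 107.8 ± 2.16 CPM in Ad-hHIF2 organoids (SD, n = 3).

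Other negative regulators of receptor and ERK signalling were divided. Of 15 tested, 5 were higher and 2 lower with HIF2 than with GFP (edgeR), beside 15.9% and 13.6% of all genes tested. The number higher was 3 without Ad-hHIF2 replicate 3, and on both TPM scales 2 were higher and 0 lower. Lrig3, of a family that limits receptor tyrosine kinases, rose from 4.92 ± 1.32 to 11.6 ± 0.614 CPM (SD, n = 3; adjusted p = 0.00138, edgeR). Errfi1, an inhibitor of EGF receptor kinases, rose by 0.93 on the log2 scale (adjusted p = 8.66e-05, edgeR). The ERK phosphatases differed among themselves. Dusp6 was higher, whereas Dusp9 and Dusp7 had log2 fold changes of -0.87 and -0.71 (adjusted p = 0.00426 and 0.0392, edgeR). The call of Dusp9 was lost on both TPM scales (adjusted p = 0.593 and 0.579, limma). The call of Dusp7 was lost there too, and in edgeR without Ad-GFP replicate 1 or 4 and without Ad-hHIF2 replicate 1 or 3. The nuclear phosphatases Dusp4 and Dusp5 were at 88.4 ± 8.52 and 59.2 ± 3.19 CPM in Ad-GFP and at 87.2 ± 4.29 and 53.8 ± 3.88 CPM in Ad-hHIF2 organoids (SD, n = 3).

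Transcripts known to follow ERK activity mostly went the other way from Dusp6, Spry2 and Spry4. Of 11 tested in Ad-hHIF2 against Ad-GFP, 8 were lower and 1 higher (edgeR), beside 13.6% and 15.9% of all genes tested, with a median log2 fold change of -0.58. The same counts were found in Ad-hHIF2 against Ad-hHIF1, with a median of -0.60. In that comparison, 3 were lower when libraries were scaled by total counts, and 1 in limma on either TPM scale. The immediate early gene Egr1 fell by 2.35 on the log2 scale, from 19.2, 21.5 and 26.2 CPM to 4.71, 2.75 and 5.82 CPM (adjusted p = 0.00023, edgeR). Myc, a growth regulator, was at 148.0, 143.0 and 147.5 CPM in Ad-GFP and 69.9, 56.7 and 69.4 CPM in Ad-hHIF2 samples (log2 fold change -1.16, adjusted p = 5.32e-05, edgeR). Both genes had every Ad-hHIF2 sample below every other sample. Of all genes tested, 22.4% lay wholly below Ad-GFP in Ad-hHIF2 samples, and 19.1% wholly below Ad-hHIF1. The cell cycle gene Ccnd1 and the ephrin receptor genes Epha4 and Epha2 fell by 0.86, 0.98 and 0.58, and Phlda1 by 0.67. When libraries were scaled by total counts, the calls of Epha2 and Phlda1 were lost (adjusted p = 0.203 and 0.0925, edgeR). Myc, Ccnd1, Epha4, Epha2 and Phlda1 lost their calls on both TPM scales (adjusted p from 0.246 to 0.916, limma). Phlda1 was at -0.05 and -0.09 there. Fos and the ETS factor Etv5 had smaller differences of -0.41 and -0.33, each called with all samples and lost without Ad-GFP replicate 1, Ad-hHIF2 replicate 1 or Ad-hHIF2 replicate 3 (Etv5 also without Ad-GFP replicate 3), and Etv4 one of -0.19 that did not pass (adjusted p = 0.265, edgeR).

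The exception was Ier3, an immediate early gene with a role in cell survival. It was at 86.6, 81.3 and 70.6 CPM in Ad-GFP, 325.6, 338.8 and 305.9 CPM in Ad-hHIF2 and 94.9, 103.6 and 101.5 CPM in Ad-hHIF1 samples. This was a 4.08-fold rise with HIF2 (log2 2.03, adjusted p = 2.92e-06, edgeR). The number of lower genes in this list rests on the scaling. Against Ad-GFP it was 4 when libraries were scaled by total counts, which moved the median of all genes from -0.01 to 0.24 on the log2 scale. It was 1 in limma on either TPM scale, where the differences of Fos, Etv5 and Etv4 turned positive. In Ad-hHIF1 against Ad-GFP organoids, 0 genes of any of these 5 lists passed in edgeR.

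**Figure D4:**
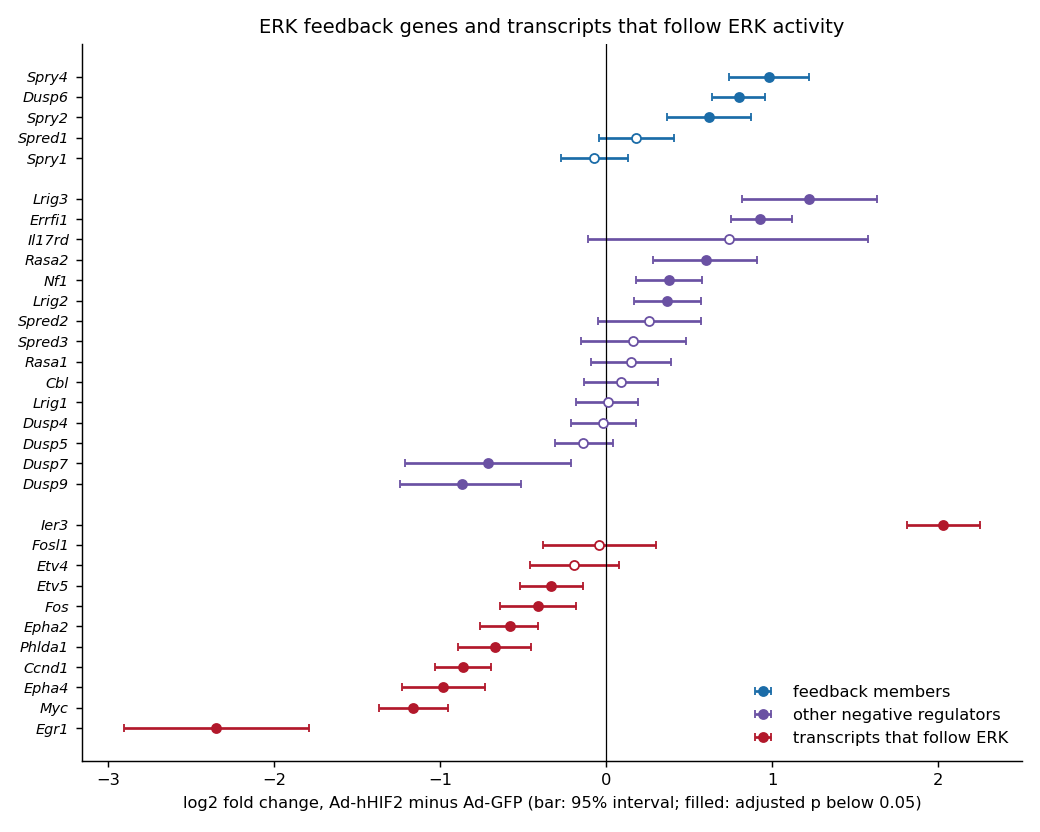
Log2 fold change between Ad-hHIF2 and Ad-GFP organoids (x axis) with 95% intervals for the 5 feedback members, 15 other negative regulators and 11 transcripts that follow ERK activity; filled points had an adjusted p below 0.05 in edgeR. The feedback members range from -0.07 to 0.98, whereas 8 of the 11 transcripts in the lowest block are filled and below 0.

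The gene profiles most like that of Fgf1 over the 9 samples, by Pearson correlation of log2 CPM among 12385 genes, were those of Adam10 (r = 0.992), Sesn2 (0.990), Glp1r (0.990), Fam107b (0.990) and Ctgf (0.987). These values describe 9 samples in which Ad-hHIF2 stands apart, and they carry no p. Adam10, a cell-surface protease, was at 32 ± 2.36 CPM in Ad-GFP, 85.3 ± 7.8 CPM in Ad-hHIF2 and 37.8 ± 1.11 CPM in Ad-hHIF1 cultures (SD, n = 3). Among the members, Dusp6 followed Fgf1 most closely (r = 0.966, rank 147), then Fgfr1 (0.896), Spry4 (0.885) and Spry2 (0.846). Spred1 (0.542) and Spry1 (0.029) did so least among the members ranked. Fgfr2, Fgfr3 and Fgfr4 were below the mean of 1 CPM required and were not ranked. When each group was centred on its own mean, the correlation of Dusp6 with Fgf1 was -0.337 and that of Spry4 was -0.376. It was 0.143 for Spry2, 0.107 for Spry1, 0.062 for Fgfr1 and -0.007 for Spred1, and 0.480 to 0.713 for the 5 genes most like Fgf1.

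Markers of other cell types that make FGF pathway transcripts were low. The summed level of 12 fibroblast and smooth muscle markers was 13.4 to 19.8 CPM in Ad-GFP, 10.7 to 13.8 CPM in Ad-hHIF2 and 11.1 to 21.3 CPM in Ad-hHIF1 cultures. For 7 endothelial markers these ranges were 3.05 to 5.24, 2.42 to 3.69 and 2.97 to 5.96 CPM. For 7 neuron and glia markers they were 11.3 to 18.8, 5.33 to 8.83 and 9.64 to 44.7 CPM. Against Ad-GFP, 0 of the 7, 1 and 4 tested markers of these sets were higher with HIF2 in edgeR. In the neuron and glia set 2 of the 4 were lower, 1 of them at least 2-fold, beside 13.6% and 3.83% of all genes tested. The 9 blood and immune markers summed to 14.2 to 18.5 CPM in Ad-GFP, 16.9 to 22.3 CPM in Ad-hHIF2 and 11.5 to 15.4 CPM in Ad-hHIF1 cultures. The macrophage receptor Csf1r rose from 1.91, 1.3 and 0.3 CPM in Ad-GFP to 2.79, 3.08 and 4.27 CPM in Ad-hHIF2 samples (adjusted p = 0.0475, edgeR). The leukocyte gene Ptprc fell from 0.492, 0.665 and 1.15 CPM to 0.0686, 0.0589 and 0 CPM (adjusted p = 0.00472, edgeR). The part of such cells in the differences of the members was not tested.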

How the data were processed

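RNA sequencing covered 9 duodenal organoid cultures, in groups of 3 taken from the sample labels (Ad-hHIF1, Ad-hHIF2 and the Ad-GFP control). Transcripts were quantified by the authors with RSEM after quality filtering of the reads, and the deposited expected counts are not normalized. The deposited TPM were computed by RSEM from those counts and the effective lengths, another column of the tables. Version, aligner, build and annotation are not given in the sources used here. Of the expected counts, 85.7% lay within 0.005 of a whole number.

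The counts were rounded, filtered with filterByExpr and TMM-normalized. The quasi-likelihood test of edgeR 4.0.16 was run in R 4.3.3 (limma 3.58.1), with Benjamini-Hochberg adjustment over all genes tested. A gene passed at an adjusted p below 0.05. Comparisons with Ad-GFP used only the 6 samples concerned, and that between the HIFs used all 9. Standard errors were derived from the F statistic, and intervals are 95%. The exact permutation test of 3 against 3 cannot go below p = 0.10. The fits were tested on simulated data.

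The 10 members and all lists were chosen with earlier results of these data known. Named were all members, list genes that passed with at least a 2-fold change in either comparison of Ad-hHIF2, and the 5 genes most correlated with Fgf1 among those with a mean of at least 1 CPM (log2 CPM with a prior count of 2). Where no list gene reached 2-fold, the most abundant was named. Other list genes were named after their values were seen. Spry3 is not analysed here, and some list genes are not reported here. Members' positions are from GENCODE M21 by Ensembl identifier, and upstream windows from RefSeq (GRCm38.p6). Alternative settings included omitting the count filter, requiring 10 counts per sample, scaling by median-ratio factors or by total counts, DESeq2 1.42.0, limma on log2(TPM + 1) and log2(TPM + 0.1), other samples in the fit, unrounded counts, the replicate number as a block and each sample left out in turn. Applying these to the pathway lists was decided after the data were seen. Python 3.11.15 and matplotlib 3.10.9 read the files and drew the figures.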

Additional observations from a re-analysis of the deposited data

How the results depend on the processing

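The rise of Fgf1, Dusp6 and Spry4 in Ad-hHIF2 against Ad-GFP organoids passed in all 16 alternatives, and that of Fgf1 against Ad-hHIF1 in all 19. With limma on log2(TPM + 1) and log2(TPM + 0.1), 814 and 899 genes were higher and 196 and 210 lower in Ad-hHIF2 against Ad-GFP (2381 and 2035 in edgeR), and 3 members each. Against Ad-hHIF1 the TPM scales gave 315 and 381 genes higher, 52 and 79 lower (2137 and 1871 in edgeR), and 1 member each. Scaling by total counts left 828 and 804 genes lower in these comparisons. In Ad-hHIF1 against Ad-GFP, 258 genes were higher and 126 lower without a count filter, 68 and 76 in DESeq2, and 6 and 1 in a fit of all 9 samples, against 0 in edgeR; DESeq2 called 1 member.

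With 1 sample left out, Ad-hHIF2 had 1715 to 2550 genes higher and 1330 to 1989 lower than Ad-GFP, and 4 members higher. It had 1483 to 2256 higher and 1111 to 2079 lower than Ad-hHIF1, and 3 to 5 members higher, with 3 without Ad-hHIF2 replicate 1.

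Some values changed sign. In Ad-hHIF2 against Ad-GFP the median log2 difference of all genes was -0.01 with TMM factors and 0.24 by total counts. That median was 0.12 and 0.30 on log2(TPM + 1) and log2(TPM + 0.1). For Ad-hHIF2 against Ad-GFP, Spry1 was at 0.18 by total counts and 0.20 and 0.36 on the TPM scales, where Fgfr3 was at 0.03 and 0.20, Hras at 0.09 and 0.13, Fos at 0.11 and 0.14, Etv5 at 0.06 and 0.10 and Etv4 at 0.11 and 0.13 (0.08 by total counts). Against Ad-hHIF1, Etv5 was at 0.01 on log2(TPM + 1). With 1 sample left out, Fgfr3 ranged from -0.67 to 0.09 against Ad-GFP and from -0.30 to 0.67 against Ad-hHIF1. In Ad-hHIF1 against Ad-GFP, Fgfr1 ranged from -0.04 to 0.07, Spry2 from -0.09 to 0.18 and Spred1 from -0.07 to 0.10. The cause of these changes was not tested.

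Whether samples of equal replicate number share an animal or a batch is not given in the labels. Deviations of same-numbered samples from their group means correlated at -0.194 to 0.134, above 0.1 in 1 of 9 pairs. Those of differently numbered samples correlated at -0.202 to 0.206, a similar range, so these values cannot decide whether the samples were paired. With the replicate number as a block, the call of Fgfr1 was lost (log2 0.39, adjusted p = 0.0603 against Ad-GFP; 0.38 and 0.0653 against Ad-hHIF1, edgeR), and no other member's call changed. Of the list genes named, the block lost Fgf13 (0.98, adjusted p = 0.0832) and gained Fgf9 (-2.54, adjusted p = 0.0092) and Kl (-2.35, adjusted p = 0.0246) against Ad-GFP, and lost Etv5 against Ad-hHIF1 (-0.26, adjusted p = 0.0523, edgeR). It also raised the other negative regulators lower against Ad-hHIF1 from 1 to 2. Depth limits Fgfr2, Fgfr3 and Fgfr4, and Fgf1 outside Ad-hHIF2 rests on 24 to 84 counts.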
